A study of Danio rerio with 6 samples.

Results

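The proteasome is the protease complex that degrades ubiquitin-tagged proteins in the cytosol and nucleus. Its genes were selected from the RNA-seq count table by symbol, as every zebrafish gene with a curated mRNA row whose symbol begins with *psma*, *psmb*, *psmc*, *psmd*, *psme*, *psmf* or *psmg* and a number. The selection held 57 genes out of 14991 genes with a symbol, and each gene was represented by its transcript row with the most counts. The barrel-shaped 20S core carries the proteolytic sites inside stacked rings of alpha (*psma*) and beta (*psmb*) subunits, and the 19S cap recognizes ubiquitin, unfolds the substrate with a ring of ATPases (*psmc*) and feeds it into the core with the help of non-ATPase subunits (*psmd*). Activators (*psme*) can take the place of the cap, *psmf1* encodes an inhibitor, *psmg* and a few *psmd* products are assembly chaperones, and in immune responses inducible beta subunits can replace the constitutive catalytic ones to form the immunoproteasome, which is known for producing peptides for MHC class I. By class there were 17 core genes (10 alpha and 7 beta), 20 cap genes (7 ATPase and 13 non-ATPase), 4 activators, 1 inhibitor, 6 assembly chaperones and 7 immunoproteasome or related beta genes. The pattern also caught 2 genes that do not encode proteasome subunits or chaperones, *psmc3ip*, whose product acts in meiotic recombination, and *psme3ip1*, whose product binds the activator encoded by *psme3*.

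The compared samples were dissected guts of wild-type (WT) zebrafish larvae at 5 days post fertilization. Larvae had been injected into the gut and swim bladder with rzIl26 (recombinant zebrafish IL-26, a cytokine) or with bovine serum albumin (BSA) as the control protein. Guts were taken 1 h later. Each group had 3 libraries, labelled as biological replicates and made from 10 to 15 pooled guts each, so that p-values measure the spread between pools and not between larvae. All larvae were WT and all received an injection, and an uninjected group was not analysed here.

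Libraries held 15156164 to 22219894 counts after rzIl26 and 16049823 to 20884580 after BSA, and the 57 genes together took 0.230% to 0.255% of the counts of a library. The tissue label was checked against marker genes. Of the 8 enterocyte markers listed, the absorptive-cell marker *fabp2* was near 0, at 0.17 to 1.66 CPM (counts relative to the scaled library total) over the 6 libraries, and the others were detected. The summed level of the enterocyte markers was 26679 to 31122 CPM in rzIl26 guts and 41318 to 43782 CPM in BSA guts without overlap, with 1 of the 8 higher and 2 lower after rzIl26, most of the sum coming from the lower *chia.2* and *apoa4b.1*. The higher gene was *apoa4a*. Means of *vil1* (3190 CPM after rzIl26, 3088 after BSA) and *cdx1b* (87.9 and 95.2) were close, with overlap. Means of *apoa1a* (3149 and 4258) and *slc15a1b* (1507 and 2031) were lower after rzIl26, though neither was called. Summed liver markers were 3890, 12182 and 12147 CPM in rzIl26 guts and 4233, 10573 and 4151 CPM in BSA guts. Liver RNA was thus present in both groups and uneven between libraries. Summed muscle markers were 201, 359 and 351 CPM in rzIl26 guts and 199, 174 and 248 CPM in BSA guts, with overlap. Summed exocrine pancreas markers were 29161 to 51362 CPM in rzIl26 guts and 40998 to 56222 CPM in BSA guts. Leukocyte markers summed to 37.0 to 42.9 CPM in rzIl26 guts and 34.7 to 43.2 CPM in BSA guts, with *mpeg1.1*, a macrophage marker, at 0. The part of these marker differences in the values below was not tested. In bulk guts fewer cells of a type, less RNA per cell and a change of the marker genes alone cannot be told apart.

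Counts were obtained for 50 of the 57 genes. The other 7 had 0 counts in all 6 libraries, namely *psma5*, *psmc6*, *psmb10*, *psmb11a*, *psmb11b*, *psmd10* and *psme3*. Products of *psma5* and *psmc6* are obligatory parts of the core and the cap, so a count of 0 cannot be read as absence of their mRNA, and how reads shared between transcripts were counted is not given in the sources used here. In the annotation of a later assembly (GRCz12tu), *psme3* overlaps *skap1* and *psmd10* overlaps *nxt2*, whereas *psma5* and *psmc6* overlap no other gene. Another 4 genes, *psme1*, *psmb9a*, *psmb12* and *psmb13a*, had counts too low for the filter, which left 46 genes for testing.

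Proteasome genes differed little between rzIl26 and BSA guts, and most values lay on the lower side. At an adjusted p-value under 0.05 (edgeR quasi-likelihood test, Benjamini-Hochberg adjustment over all 10576 transcript rows tested), 1 gene was higher after rzIl26, *psmd11a*, and 5 were lower, *psmc1b*, *psmc5*, *psma4*, *psmf1* and *psme3ip1*. These 6 were 13% of the 46 tested, against 18.9% of all rows tested. By direction, 1 of the 46 was higher, against 9.27% of all rows, and 5 of the 46 were lower, against 9.6%. The difference between these shares was not tested. Without the 2 genes that are not subunits, 1 of 44 was higher and 4 were lower. At an unadjusted p under 0.05 (edgeR), 1 of the 46 members was higher and 15 were lower. Of all 10576 rows, 1812 were higher and 1879 lower at that level, 34.9% together. On the scaled CPM, groups did not overlap in 24 members, 2 with all rzIl26 libraries above and 22 with all below. Of all rows, 39.6% were without overlap (18.7% above and 20.9% below).

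The median log2 fold change of the 46 tested genes was -0.15, against 0.012 over all rows tested, and 36 of the 46 were negative. This split depends on how the libraries are scaled. With trimmed mean of M-values (TMM) scaling, which was used throughout, 21.7% of the members and 51.2% of all rows were positive. With library totals alone all rows moved up by 0.16 (log2), 24 members were positive and 22 negative, the median of the members was 0.0060 and that of all rows 0.17, and the only called member was *psmd11a* (higher). The median of the members minus that of all rows was -0.17 with TMM and -0.16 with library totals. Lower values given below are therefore lower relative to the bulk of transcripts, and none of the 5 lower calls stood with library totals alone. Overlap of CPM values between the groups was also judged on the TMM scale and was not examined with library totals alone. The median absolute log2 fold change with TMM was 0.18 for the members, against 0.26 over all rows. Rows were not matched for level in this comparison, and standard errors reached 0.476 among the members and 1.24 over all rows.

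**Figure D1:**
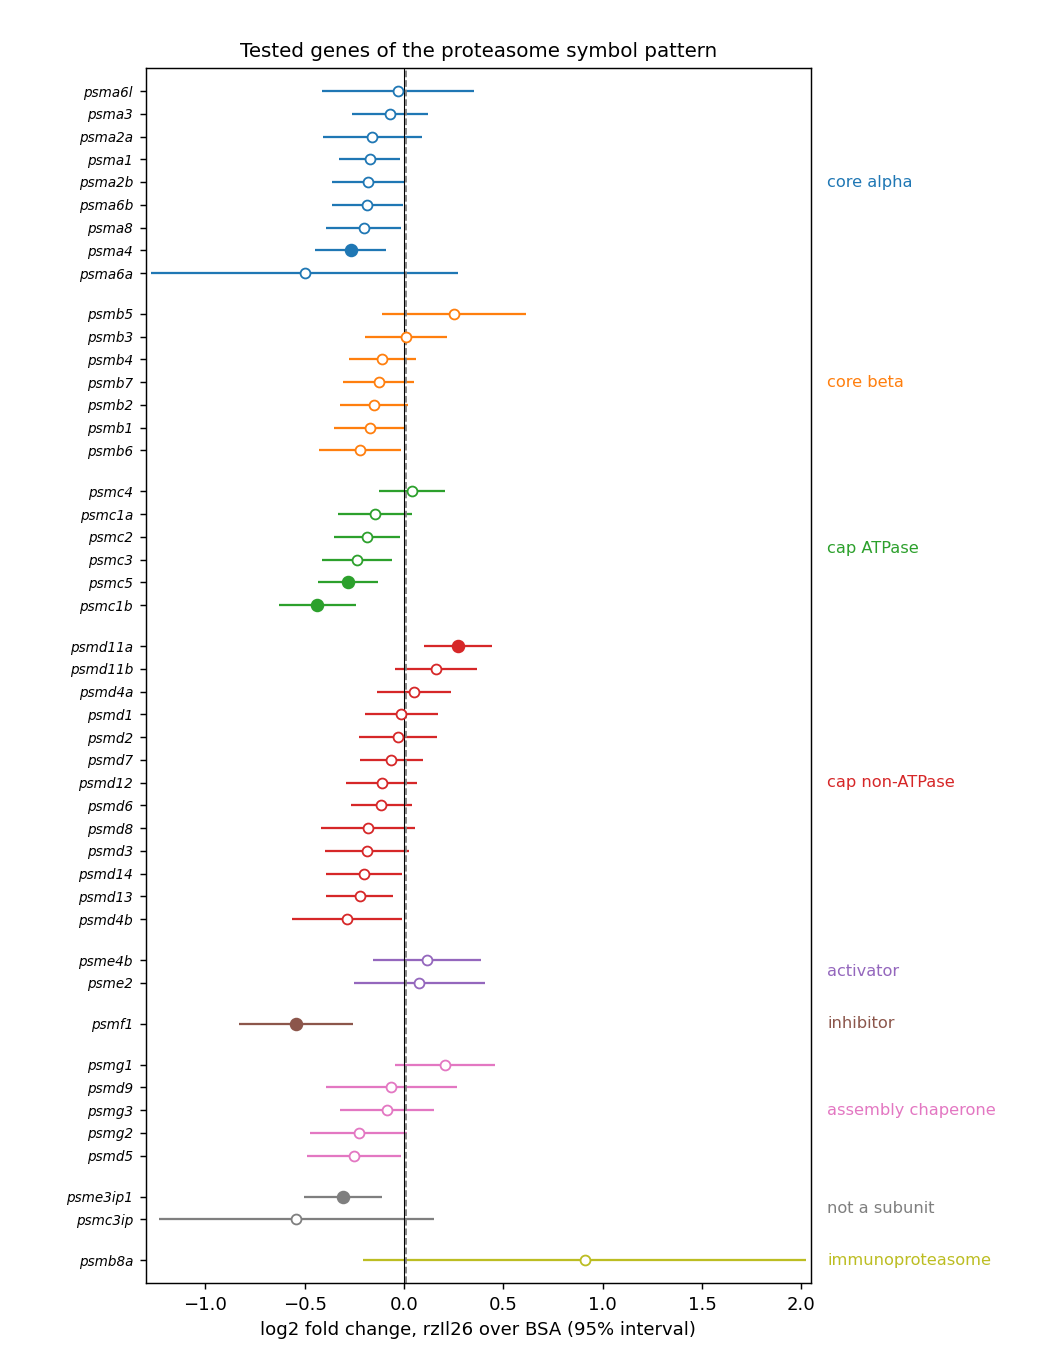
Log2 fold change of rzIl26 over BSA (x axis, TMM scaling) for the 46 tested genes by class, with 95% intervals. Filled points passed an adjusted p under 0.05, and the dashed line is the median of all rows tested (0.012). Of the points 36 lie below 0 with TMM, and 22 with library totals alone.

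On the TMM scale the replicates set narrow limits. Of the 46 tested genes 43 had a mean of at least 5 CPM in BSA guts, and their standard errors were 0.064 to 0.163 on the log2 scale. Their 95% intervals all lay between log2 fold changes of -0.83 and 0.62, which correspond to 0.563 times and 1.53 times the BSA level. The intervals do not include the choice of scaling, and library totals alone move all rows up by 0.16. The 3 tested genes below 5 CPM, *psma6a*, *psmc3ip* and *psmb8a*, had wider intervals.

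**Figure D2:**
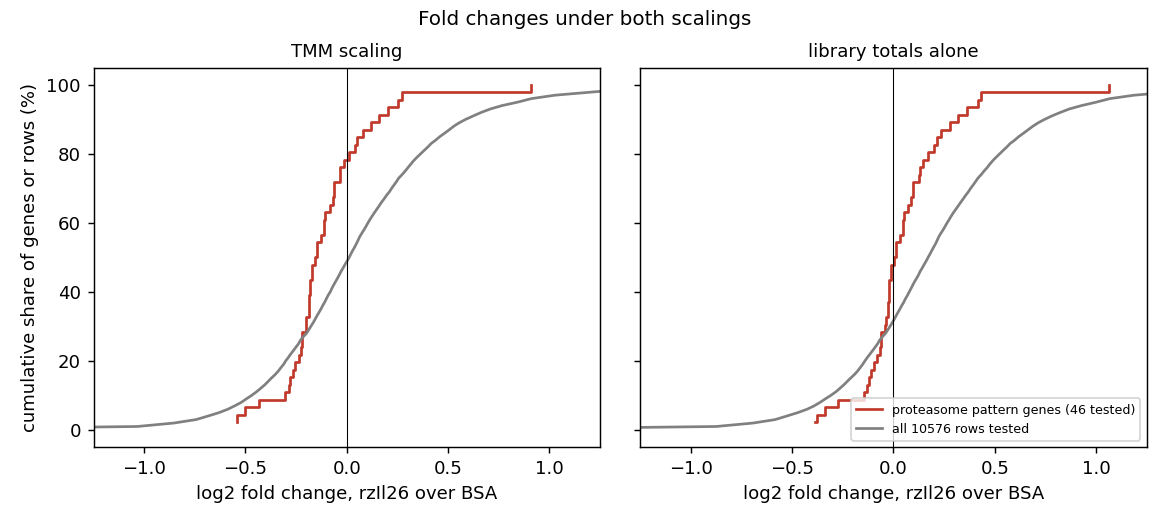
Cumulative share (y axis, %) of log2 fold changes of rzIl26 over BSA (x axis) for the 46 tested proteasome pattern genes and for all 10576 rows tested, with TMM scaling (left) and with library totals alone (right). Both curves move to the right together, the median of the members being -0.15 on the left and 0.0060 on the right and that of all rows 0.012 and 0.17.

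In the alpha ring of the 20S core, all 9 tested genes had negative log2 fold changes, from -0.50 to -0.03 with a median of -0.18, and 1 of them passed the test (alpha and beta rings together 16 tested genes, 1 lower, median -0.17 with TMM and -0.0052 with library totals alone, where 8 of the 16 were positive). The ring gates the entry of substrates into the core. *psma4* had 80.5, 88.2 and 86.0 CPM in rzIl26 guts, against 96.9, 102 and 108 CPM in BSA guts. All rzIl26 libraries were below all BSA libraries. Its mean was 84.9 ± 3.98 CPM in rzIl26 guts and 102 ± 5.40 CPM in BSA guts (SD, n = 3 each), and the gene fell by 0.27 on the log2 scale (SE 0.076, edgeR adjusted p = 0.0489). The call stood in 2 of 15 other settings (adjusted p 0.045 to 0.40), in none of the 6 that leave out a library, and DESeq2 did not make it. Those 2 were limma-voom and the sum of all rows of a gene, which leaves the counts of *psma4* unchanged because it has only 1 row. *psma1* had 87.4, 85.7 and 85.1 CPM in rzIl26 guts and 100.2, 95.5 and 95.4 CPM in BSA guts, and its log2 fold change was -0.17 (SE 0.066, edgeR adjusted p = 0.108). *psma8*, whose synonym in the gene table is *psma7*, had 95.2, 101 and 88.9 CPM in rzIl26 guts and 107, 106 and 116 CPM in BSA guts, and its log2 fold change was -0.20 (SE 0.080, edgeR adjusted p = 0.12). Groups did not overlap in either gene, though neither passed the threshold. The value of -0.50 belonged to *psma6a*, a gene below 5 CPM in every library.

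In the beta ring, no gene passed the test (7 tested, edgeR). At an unadjusted p under 0.05 there was 1 lower gene, and DESeq2 and limma-voom called 0. The 7 log2 fold changes had a median of -0.13 and ran from -0.22 to 0.25. The proteolytic sites lie on 3 of these subunits, and their genes did not stand on the same side. *psmb6*, which carries the caspase-like site, had 63.6, 61.1 and 53.3 CPM in rzIl26 guts, against 71.4, 68.2 and 67.9 CPM in BSA guts, without overlap. Its log2 fold change was -0.22 (SE 0.088, 95% interval -0.43 to -0.02, edgeR adjusted p = 0.119). *psmb7*, the trypsin-like subunit, had 100.1, 104.97 and 94.8 CPM in rzIl26 guts and 104.99, 107 and 116 CPM in BSA guts. The rzIl26 libraries were below the BSA libraries by a negligible margin, and its log2 fold change was -0.13 with TMM and 0.03 with library totals (SE 0.076 with TMM, 95% interval -0.31 to 0.05, edgeR adjusted p = 0.284). *psmb5*, which carries the chymotrypsin-like site, had 35.7, 34.4 and 24.3 CPM in rzIl26 guts and 27.7, 27.8 and 23.7 CPM in BSA guts. Replicates 1 and 2 after rzIl26 were above all BSA libraries, and replicate 3 was within their range. Its log2 fold change was 0.25 (SE 0.155, 95% interval -0.11 to 0.62, edgeR adjusted p = 0.293), and it was not called in any of the 15 other settings. *psmb1* and *psmb2*, structural beta subunits, were not called, and their log2 fold changes were -0.17 and -0.15 (SE 0.077 and 0.073, edgeR adjusted p = 0.157 and 0.195). Values were 75.9, 79.9 and 71.6 CPM in rzIl26 guts and 81.4, 86.2 and 88.6 CPM in BSA guts for *psmb1*, and 59.16, 57.4 and 56.4 CPM in rzIl26 guts and 61.8, 62.6 and 67.4 CPM in BSA guts for *psmb2*. Groups did not overlap in either, and the sign of *psmb2* turned to 0.01 with library totals.

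**Figure D3:**
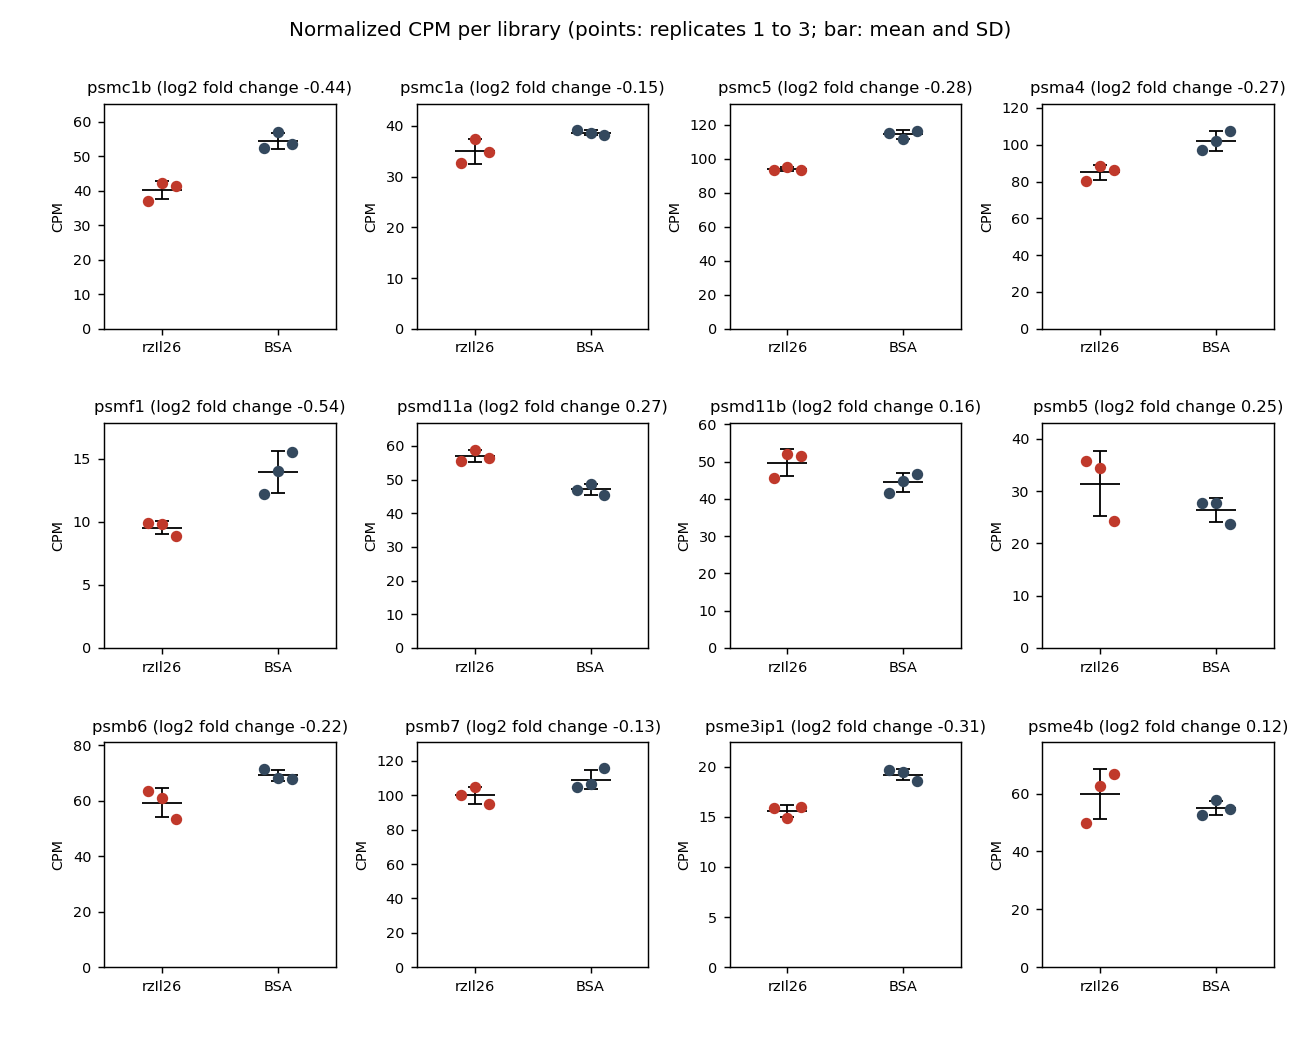
TMM-normalized CPM per library (y axis, from 0) in rzIl26 and BSA guts for 12 proteasome pattern genes, with points for replicates 1 to 3 and bars for mean and SD. *psmc1b*, *psmc5*, *psma4*, *psmf1* and *psme3ip1* lie lower in all rzIl26 libraries and *psmd11a* higher, relative to the bulk of transcripts, while *psmb5* overlaps; with library totals alone *psmb7* and *psmc1a* change sign and only *psmd11a* is called.

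The ATPase ring of the 19S cap had the lowest median of the core and cap classes. Of 7 genes, 6 were tested, 5 had negative log2 fold changes and 2 were called lower, and the median was -0.21 (cap genes together 19 tested, 1 higher and 2 lower, median -0.15 with TMM and 0.015 with library totals alone, where 10 of the 19 were positive). *psmc1b* and *psmc1a* are a pair of genes for the same ATPase. *psmc1b* had 37.1, 42.3 and 41.3 CPM in rzIl26 guts, against 52.5, 57.2 and 53.6 CPM in BSA guts. The highest rzIl26 library was below the lowest BSA library by more than the rzIl26 libraries differed among themselves. Its mean was 40.2 ± 2.73 CPM in rzIl26 guts and 54.4 ± 2.42 CPM in BSA guts (SD, n = 3 each), 0.74 times the BSA level, and it fell by 0.44 on the log2 scale (SE 0.084, 95% interval -0.63 to -0.24, edgeR adjusted p = 0.0154). This was the lowest adjusted p among all members, and the call stood in 13 of 15 other settings. It did not stand with library totals alone (edgeR adjusted p = 0.062) nor without BSA replicate 2 (edgeR adjusted p = 0.054). *psmc5*, another ATPase of the ring, had 93.5, 95.5 and 93.5 CPM in rzIl26 guts, against 115, 112 and 117 CPM in BSA guts. All 3 rzIl26 libraries were close together and below all BSA libraries. It fell by 0.28 on the log2 scale (SE 0.064, edgeR adjusted p = 0.0246), a call that stood in 6 of 15 other settings and in none that left out a library (adjusted p 0.016 to 0.26 over all settings). *psmc3* had 74.3, 78.5 and 79.8 CPM in rzIl26 guts and 85.7, 93.5 and 95.1 CPM in BSA guts without overlap, and its log2 fold change of -0.24 missed the threshold (SE 0.075, edgeR adjusted p = 0.0665). The exception to the sign was *psmc4*, at a log2 fold change of 0.04 (edgeR adjusted p = 0.723).

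The non-ATPase subunits of the cap had a median of -0.11 with 10 of 13 genes negative, and 1 gene was called, in the higher direction. *psmd11a* encodes a lid subunit that spans the cap and the core, and it is a duplicate of *psmd11b*. It had 55.4, 58.9 and 56.4 CPM in rzIl26 guts, against 47.0, 48.8 and 45.5 CPM in BSA guts. All rzIl26 libraries were above all BSA libraries. Its mean was 56.9 ± 1.80 CPM in rzIl26 guts and 47.1 ± 1.64 CPM in BSA guts (SD, n = 3 each), 1.21 times the BSA level, with a log2 fold change of 0.27 (SE 0.072, 95% interval 0.10 to 0.44, edgeR adjusted p = 0.0395). The call stood in 6 of 15 other settings, library totals among them, and in none of the 6 that leave out a library (adjusted p 0.0097 to 0.12 over all settings). *psmd13*, a lid subunit, had 56.4, 59.3 and 58.2 CPM in rzIl26 guts and 70.0, 64.3 and 68.6 CPM in BSA guts without overlap, and its log2 fold change was -0.22 (SE 0.072, edgeR adjusted p = 0.0717). *psmd14*, the lid enzyme that removes ubiquitin from bound substrates, had 53.2, 46.5 and 48.8 CPM in rzIl26 guts and 58.9, 55.0 and 56.7 CPM in BSA guts. Its groups did not overlap, and its log2 fold change was -0.20 (SE 0.081, edgeR adjusted p = 0.127). Values of *psmd1* and *psmd2*, scaffold subunits of the base, were nearest to 0 on the fitted scale, at -0.01 and -0.03 with TMM and at positive values with library totals.

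Duplicated genes were also compared within libraries, where the scaling of the library drops out. The share of *psmc1a* in the sum of *psmc1a* and *psmc1b* was 46.8%, 47.0% and 45.8% in rzIl26 guts, against 42.8%, 40.3% and 41.7% in BSA guts, a difference of 4.93 percentage points. The groups did not overlap, and the share averaged 46.5% ± 0.63 in rzIl26 guts and 41.6% ± 1.24 in BSA guts (SD, n = 3 each, two-sided exact permutation test, p = 0.1, Benjamini-Hochberg adjusted 0.333 over the 5 pairs compared). With 3 libraries against 3 the smallest p-value is 0.1. The level of *psmc1a* itself was 35.0 ± 2.39 CPM in rzIl26 guts and 38.7 ± 0.488 CPM in BSA guts (SD, n = 3 each), a log2 fold change of -0.15 (SE 0.080, edgeR adjusted p = 0.246) that turned to 0.015 with library totals. The share of *psmd4a*, one of the genes for a ubiquitin receptor of the cap, in the sum with *psmd4b* was 66.6%, 61.2% and 64.8% in rzIl26 guts and 61.9%, 60.3% and 53.8% in BSA guts with overlap (p = 0.2 by the exact test). For *psmd11a* with *psmd11b* the share was 54.9%, 53.1% and 52.3% in rzIl26 guts and 53.0%, 52.1% and 49.3% in BSA guts (p = 0.2 by the exact test). *psmd11b* had 45.5, 52.1 and 51.4 CPM in rzIl26 guts and 41.7, 44.9 and 46.8 CPM in BSA guts, a log2 fold change of 0.16 (SE 0.088, edgeR adjusted p = 0.242). The other 2 pairs, *psma2a* with *psma2b* and *psma6b* with *psma6l*, had a p of 0.6 by the exact test. Reads of near-identical copies may have been divided between the genes of a pair, so the shares are uncertain.

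**Figure D4:**
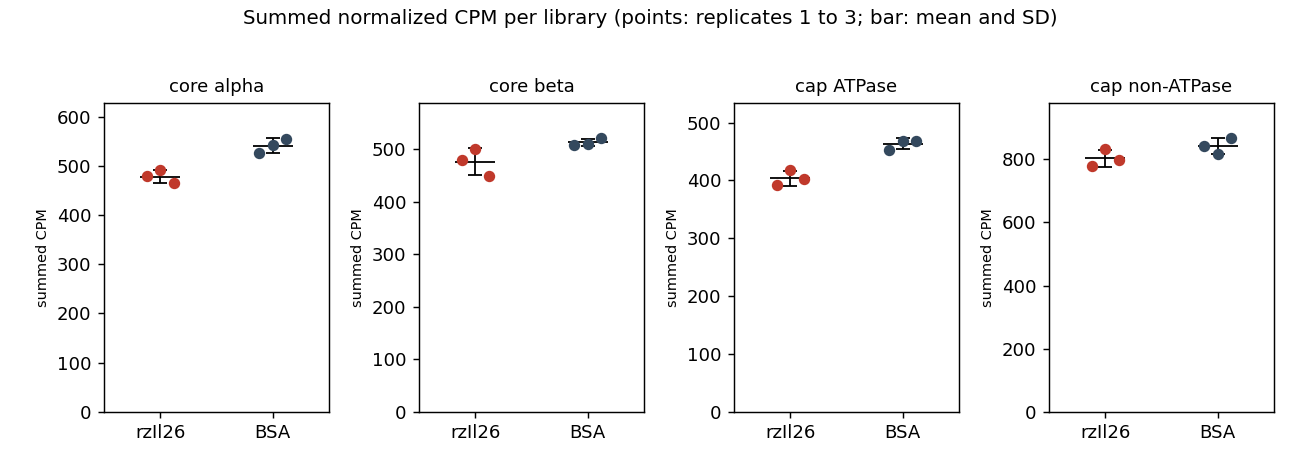
Summed TMM-normalized CPM per library (y axis, from 0) for the alpha and beta rings of the core and for the ATPase and non-ATPase subunits of the cap, in rzIl26 and BSA guts, with points for replicates 1 to 3 and bars for mean and SD. Alpha, beta and ATPase sums lie below the BSA sums in all rzIl26 libraries on the TMM scale, and the non-ATPase sums overlap.

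Summed over the genes of a class on the TMM scale, the alpha ring had 478 ± 13.3 CPM in rzIl26 guts and 541 ± 14.6 CPM in BSA guts (SD, n = 3 each), and the beta ring 476 ± 26.04 CPM in rzIl26 guts and 513 ± 7.22 CPM in BSA guts. Cap ATPases summed to 404 ± 13.1 CPM in rzIl26 guts and 463 ± 9.40 CPM in BSA guts. Non-ATPase sums were 803 ± 26.4 CPM in rzIl26 guts and 843 ± 25.7 CPM in BSA guts. The ratios of rzIl26 to BSA were 0.883, 0.928, 0.872 and 0.953 in this order. They depend on the TMM scaling, and no ratio was taken with library totals alone. With that scaling the median log2 fold changes were -0.0052 for core genes and 0.015 for cap genes. The sum is weighted by the genes with most reads and by transcript length, so the classes are compared only between groups, and no test was made on it.

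Of the activators, 2 of 4 were tested and neither was called (edgeR, with 0 at an unadjusted p under 0.05 and 0 by DESeq2 and limma-voom). *psme4b* encodes the nuclear activator PA200 and had 50.0, 62.6 and 66.6 CPM in rzIl26 guts and 52.7, 57.7 and 54.8 CPM in BSA guts. Its rzIl26 libraries lay on both sides of the BSA libraries, and its log2 fold change was 0.12 (SE 0.116, 95% interval -0.15 to 0.39, edgeR adjusted p = 0.517). *psme2* encodes a subunit of the interferon-inducible activator PA28 and had 20.2, 17.8 and 17.1 CPM in rzIl26 guts and 14.4, 20.2 and 17.7 CPM in BSA guts. Groups overlapped, with a log2 fold change of 0.08 (SE 0.141, 95% interval -0.25 to 0.41, edgeR adjusted p = 0.733) whose sign turned without BSA replicate 1 (-0.05). *psme1*, the gene of the other PA28 subunit, had 1, 2 and 0 counts in rzIl26 libraries and 0, 2 and 0 in BSA libraries, too few to compare.

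*psmf1* encodes PI31, known as an inhibitor of the 20S core in vitro. It had 9.87, 9.87 and 8.92 CPM in rzIl26 guts, against 12.2, 14.0 and 15.5 CPM in BSA guts. All rzIl26 libraries were below all BSA libraries, and the BSA libraries spread more widely. Its mean was 9.55 ± 0.549 CPM in rzIl26 guts and 13.9 ± 1.65 CPM in BSA guts (SD, n = 3 each), 0.686 times the BSA level. It fell by 0.54 on the log2 scale (SE 0.123, 95% interval -0.83 to -0.26, edgeR adjusted p = 0.0241), the lowest log2 fold change of any tested member. The call stood in 10 of 15 other settings and was lost with library totals alone and without rzIl26 replicate 2 or 3 or BSA replicate 2 or 3 (adjusted p 0.011 to 0.087 over all settings).

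None of the 5 tested assembly chaperone genes was called (edgeR, with 0 higher and 1 lower at an unadjusted p under 0.05, and 0 by DESeq2 and limma-voom). *psmd5*, a chaperone of the ATPase ring, had 12.6, 11.7 and 13.5 CPM in rzIl26 guts and 14.3, 15.0 and 15.7 CPM in BSA guts without overlap, and its log2 fold change was -0.25 (SE 0.101, edgeR adjusted p = 0.122). *psmg1* and *psmg2* encode the partners of the heterodimer that starts the alpha ring, and their fitted changes had opposite signs. *psmg1* had 15.7, 17.0 and 14.5 CPM in rzIl26 guts and 12.5, 14.2 and 14.2 CPM in BSA guts, with all rzIl26 libraries above, and a log2 fold change of 0.21 (SE 0.107, edgeR adjusted p = 0.22). *psmg2* had 17.1, 16.6 and 20.4 CPM in rzIl26 guts and 21.2, 20.5 and 21.6 CPM in BSA guts, with all rzIl26 libraries below, and a log2 fold change of -0.23 (SE 0.104, edgeR adjusted p = 0.168). *psmg3*, another alpha ring chaperone, had 12.1, 12.5 and 11.2 CPM in rzIl26 guts and 11.9, 12.9 and 13.2 CPM in BSA guts. *psmd9*, a chaperone of the ATPase ring, had 10.2, 14.4 and 12.7 CPM in rzIl26 guts and 12.3, 13.9 and 12.9 CPM in BSA guts. Both overlapped, at log2 fold changes of -0.08 and -0.06 with TMM and of 0.07 and 0.10 with library totals (edgeR adjusted p = 0.595 and 0.789 with TMM).

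The genes that share the symbol pattern without encoding subunits were both on the lower side. *psme3ip1* had 15.9, 14.9 and 15.9 CPM in rzIl26 guts, against 19.6, 19.5 and 18.6 CPM in BSA guts without overlap, and fell by 0.31 on the log2 scale (SE 0.084, edgeR adjusted p = 0.044), a call that stood in 4 of 15 other settings. *psmc3ip* had 1.73, 1.20 and 0.924 CPM in rzIl26 guts and 2.29, 1.66 and 1.60 CPM in BSA guts with overlap, and its log2 fold change was -0.54 (SE 0.296, edgeR adjusted p = 0.242).

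Immunoproteasome genes were close to the detection limit at this depth. *psmb8a* encodes the inducible counterpart of *psmb5*, and *psmb9a* that of *psmb6*. *psmb12* and *psmb13a* are further beta genes that the annotation places next to them. *psmb8a* was the only one tested and had 15, 21 and 7 counts in rzIl26 libraries, against 5, 5 and 11 in BSA libraries. The rzIl26 replicates 1 and 2 were above all BSA libraries and replicate 3 was within their range. Its log2 fold change of 0.91 was the highest of the tested members, but its interval spanned 0 (SE 0.476, 95% interval -0.20 to 2.02, edgeR adjusted p = 0.222). *psmb9a* had 2, 17 and 3 counts in rzIl26 libraries and 2, 1 and 4 in BSA libraries. *psmb12* had 7, 18 and 3 counts in rzIl26 libraries and 7, 4 and 3 in BSA libraries. *psmb13a* had 0, 9 and 7 counts in rzIl26 libraries and 1, 3 and 2 in BSA libraries. In all 4 genes rzIl26 replicate 2, also the deepest library, had the most counts, and groups overlapped. Fitted without the filter on low counts, *psmb9a*, *psmb12* and *psmb13a* had log2 fold changes of 1.43, 0.83 and 1.20 (SE 0.849, 0.642 and 0.967). Their edgeR adjusted p-values were 0.32, 0.453 and 0.471. The 4 genes summed to 109 counts in the rzIl26 libraries and 48 in the BSA libraries. No immunoproteasome gene was called, their counts being low and uneven between replicates. The wide interval of *psmb8a* does not show that the groups were alike. In the GRCz12tu annotation the spans of *psmb8a*, *psmb9a*, *psmb12* and *tap2a* overlap that of *psmb13a*, so reads may be shared between them.

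**Figure D5:**
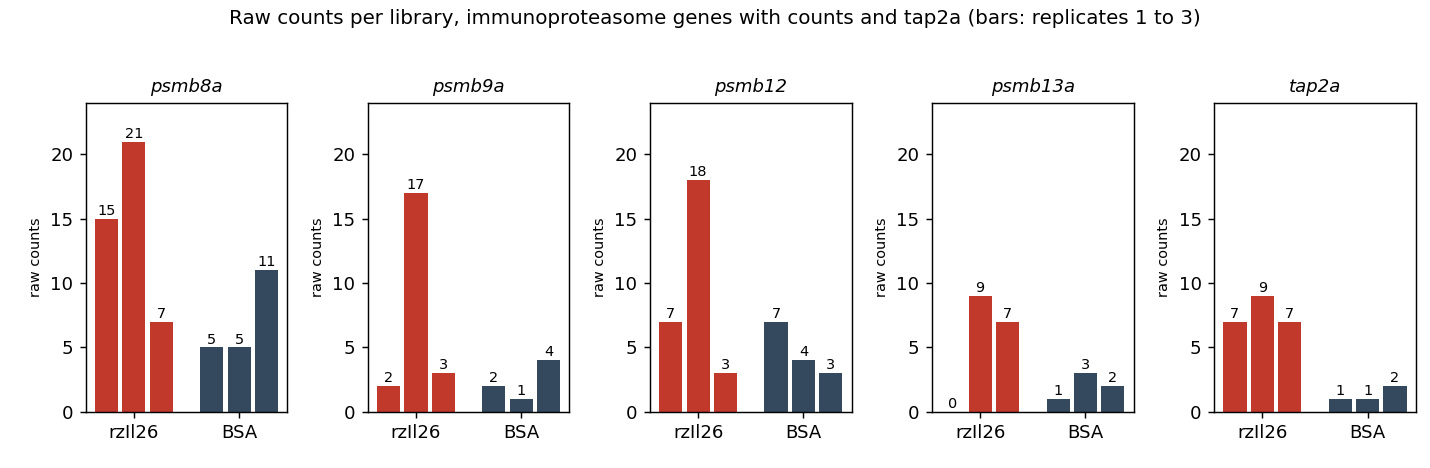
Raw counts per library (y axis, from 0; bars for replicates 1 to 3, rzIl26 left of BSA) of the 4 immunoproteasome genes with counts and of *tap2a*. The highest bar of each *psmb* gene is rzIl26 replicate 2, and *tap2a* has 7 to 9 counts after rzIl26 and 1 to 2 after BSA.

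*tap2a*, a peptide transporter gene of MHC class I antigen presentation and a neighbour of these genes, had 7, 9 and 7 counts in rzIl26 libraries and 1, 1 and 2 in BSA libraries without overlap. It was below the filter of the main test, and without the filter its edgeR adjusted p was 0.0353. It is named here because its counts were seen not to overlap. Of the antigen presentation genes listed alongside the proteasome, 13 had a row, 11 were tested, 1 was higher and 0 were lower. Their log2 fold changes had a median of 0.03, with 6 positive and 5 negative. *mhc1zba*, of the same list, also did not overlap, in the lower direction. It had 60.7, 56.7 and 59.6 CPM in rzIl26 guts and 63.2, 75.1 and 74.1 CPM in BSA guts. Its log2 fold change was -0.26 (SE 0.090, edgeR adjusted p = 0.0819). The called gene was *irf1b*, an interferon regulatory factor gene whose mammalian counterpart drives immunoproteasome genes. It had 86.2, 115 and 158 CPM in rzIl26 guts, against 30.5, 60.9 and 24.5 CPM in BSA guts. All rzIl26 libraries were above all BSA libraries. Its log2 fold change was 1.63 (SE 0.363, edgeR adjusted p = 0.0228). The call stood in 11 of 15 other settings and in 2 of the 6 that leave out a library (adjusted p 0.0045 to 0.084 over all settings).

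Genes that work with the proteasome but have other symbols were described from a list of 52 symbols in 5 groups, of which 41 had a row and 35 were tested. There were 5 higher and 5 lower genes with a median log2 fold change of -0.06, while 18.9% of all rows tested were called. The lists were chosen with earlier results of these data known. A comparison of their called share with that of all rows therefore tests nothing, and the same holds for each of the 5 groups. In the group of cap-bound genes 1 of 4 tested was called. *adrm1*, a ubiquitin receptor of the cap, had 44.9, 46.2 and 46.5 CPM in rzIl26 guts and 55.4, 58.8 and 59.5 CPM in BSA guts without overlap, and fell by 0.34 on the log2 scale (SE 0.071, edgeR adjusted p = 0.0201). In the group for ubiquitin and its activation all 3 tested genes were called, 1 higher and 2 lower. Of these, *ubc*, a polyubiquitin gene, had 686, 713 and 627 CPM in rzIl26 guts and 854, 881 and 842 CPM in BSA guts and fell by 0.35 on the log2 scale (SE 0.069, edgeR adjusted p = 0.0167). *uba1*, the gene of the ubiquitin-activating enzyme, was higher, with 292, 302 and 321 CPM in rzIl26 guts and 257, 250.1 and 262 CPM in BSA guts and a log2 fold change of 0.25 (SE 0.066, edgeR adjusted p = 0.0388). Groups did not overlap in *adrm1*, *ubc* or *uba1*. The calls of *adrm1* and *ubc* did not stand with library totals alone (edgeR adjusted p = 0.165 and 0.1), and those of *adrm1*, *ubc* and *uba1* stood in 10, 12 and 7 of 15 other settings.

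Of 8 tested genes in the group for proteasome maturation and transcription, 2 were higher and 0 lower. *ddi2* encodes a protease that in mammals activates the transcription factor of proteasome genes, and had 59.9, 59.4 and 66.9 CPM in rzIl26 guts and 50.1, 48.6 and 48.6 CPM in BSA guts. Its log2 fold change was 0.34 (SE 0.079, edgeR adjusted p = 0.0267). *zfand5a*, whose mammalian counterpart binds the proteasome and stimulates it, had 145, 239 and 154 CPM in rzIl26 guts and 97.8, 117 and 80.4 CPM in BSA guts, with a log2 fold change of 0.87 (SE 0.216, edgeR adjusted p = 0.0326). In both genes every rzIl26 library exceeded every BSA library, rzIl26 replicate 2 being far above the other two in *zfand5a*. The call of *ddi2* stood in 10 of 15 other settings and in 1 of the 6 that leave out a library (edgeR adjusted p 0.0087 to 0.084 over all settings), and that of *zfand5a* in 12 of 15 and 3 of 6 (0.00052 to 0.10). Of the 8 tested genes in this group, 3 were positive and 5 negative. Among the negative ones, none called, were *zfand5b*, *zfand2a* and *nfe2l1a*. Their log2 fold changes were -0.20, -0.31 and -0.17 (edgeR adjusted p = 0.319, 0.0816 and 0.552).

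Of the 9 tested genes for shuttles and the unfoldase that deliver ubiquitinated proteins, 1 was higher and 2 were lower. *ufd1l* and *nploc4* encode the paired cofactors of that unfoldase. *ufd1l* had 29.4, 30.4 and 30.5 CPM in rzIl26 guts and 39.2, 38.2 and 36.5 CPM in BSA guts and fell by 0.33 on the log2 scale (SE 0.073, edgeR adjusted p = 0.0218). *nploc4* had 28.99, 28.7 and 30.8 CPM in rzIl26 guts and 35.3, 36.1 and 41.3 CPM in BSA guts and fell by 0.35 on the log2 scale (SE 0.090, edgeR adjusted p = 0.0358). *ubqln4*, a ubiquilin shuttle gene, had 204, 212 and 212 CPM in rzIl26 guts and 174, 171 and 179 CPM in BSA guts, with a log2 fold change of 0.26 (SE 0.062, edgeR adjusted p = 0.0282). Groups did not overlap in any of these 3 genes. The call of *ufd1l* stood in 10 of 15 other settings and that of *nploc4* in 7, and neither stood with library totals alone (edgeR adjusted p = 0.134 and 0.227). *nploc4* was also not called with liver markers as a covariate or in any of the 6 settings that leave out a library, and *ufd1l* was called in 2 of those 6. The call of *ubqln4* stood in 8 of 15 other settings, library totals among them, and in 1 of the 6 that leave out a library. The gene of the unfoldase itself, *vcp*, lay on the higher side and was not called. It had 329, 365 and 359 CPM in rzIl26 guts and 310, 290 and 304 CPM in BSA guts without overlap. Its log2 fold change was 0.22 (SE 0.069, edgeR adjusted p = 0.0655). Of the 9 tested genes in this group, 4 were positive and 5 negative.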

How the data were processed

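Dissected guts were profiled by stranded poly(A) RNA-seq with paired-end reads, aligned to danRer11 by the authors. The authors deposited raw counts per RefSeq transcript, 16134 rows by 6 libraries. The aligner, the counter and the handling of shared reads are not given in the sources used here. Groups and replicates came from the sample titles. Symbols were read from RefSeq's gene table (GRCz12tu), whose coordinates served only to find overlapping genes. Rows with 0 counts in every library numbered 2701, and rows without a symbol held 0.342% of the counts.

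Counts were analysed in R 4.3.3. Rows kept by filterByExpr (minimum count 10) numbered 10576. Libraries were scaled by TMM (factors 1.05 to 1.07 in rzIl26, 0.92 to 0.98 in BSA), and groups were compared by the quasi-likelihood test of edgeR 4.0.16, without further covariates. CPM values use the TMM-scaled totals. Benjamini-Hochberg adjustment ran over all rows (threshold 0.05). Each standard error is the absolute log2 fold change divided by the root of F. Duplicated genes were tested by exact permutation (two-sided). The script was tested on simulated data.

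Members, classes, partner lists and tests were chosen with earlier results of these data known. Named genes were the 3 with the lowest adjusted p per class, the catalytic core genes, all genes with counts in the small classes, the highest and lowest fold changes, and called partner genes (at most 3 per list, 1 of which is not reported here). *psma6a*, *psmc1a*, *psmc4*, *psmd1*, *psmd2*, the genes of the paralogue pairs, *tap2a*, *mhc1zba*, *vcp*, *zfand5b*, *zfand2a* and *nfe2l1a* were chosen after their values were seen. Alternatives were DESeq2 1.42.0, limma-voom (limma 3.58.1), RLE factors, library totals alone, filters of none or of 10 counts in each library, the replicate number as a block, liver markers as a covariate, the sum of all rows of a gene, an adjusted p under 0.1 and leaving out each library. No tested member gained counts from the sum of all rows, as further rows of these genes were absent or at 0. For a member, a call that stood in that setting is thus no added support.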

Additional observations from a re-analysis of the deposited data

How the results depend on the processing

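The count of higher members (1) became 0 without the filter on low counts, with the replicate block and with liver markers as a covariate, and was 0 to 0 when each library was left out. The count of lower members (5) was 0 with library totals alone, 3 without the filter and 3 with DESeq2. It was 2 with the replicate block and 2 with liver markers as a covariate (*psmc1b* and *psmf1* in both fits). When each library was left out the count was 0 to 2, 0 being reached without BSA replicate 2. With library totals alone the medians were -0.0052 for the core, 0.015 for the cap, 0.26 for activators and 0.074 for assembly chaperones (log2), and signs turned, among them those of *psmg3* (0.07), *psmd9* (0.10), *psmc1a* (0.015), *psmb2* (0.010) and *psmb7* (0.031), together with *psma2a*, *psma3*, *psma6l*, *psmb4*, *psmd1*, *psmd2*, *psmd6*, *psmd7* and *psmd12*, since that scaling moves all rows up by 0.16. Leaving out each library gave medians of -0.16 to -0.10 for the cap and values of 0.67 to 1.31 for *psmb8a*, the sole tested immunoproteasome gene, and it turned the signs of *psme2* (-0.049 to 0.19, negative without BSA replicate 1) and *psmd9* (-0.18 to 0.056, positive without rzIl26 replicate 1), and in at least 1 case each those of *psmd1*, *psmd2*, *psmb3* and *psma6l*, whose values lay near 0. *psmb8a* could not be fitted with at least 10 counts in every library or without rzIl26 replicate 2. The replicate numbers were not used as pairs in the main fit, because the sample titles give no shared litter, batch or day. Same-numbered libraries correlated at 0.376, 0.177 and -0.0153 in their deviations from the group means. Differently numbered libraries correlated at -0.345 to 0.258. Beyond that shift the causes were not tested, and 3 pools per group limit which small changes can be seen.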
